A study of Mus musculus with 8 samples.

Results

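The T-box family of transcription factors was followed in mouse embryonic stem cells that had been driven towards precardiac mesoderm, with and without Tbx1. Its members were chosen by name: Tbx1, Tbx2, Tbx3, Tbx4, Tbx5, Tbx6, Tbx18, Tbx20, T (brachyury) and Eomes, 10 of the 55487 genes in the deposited count table. The other 7 mouse T-box genes, Tbr1, Tbx10, Tbx15, Tbx19, Tbx21, Tbx22 and Mga, were read for comparison. The parental group was the E14-Tg2a line, wild type for Tbx1, and the mutant group was its derivative, line 4D, labelled Tbx1-/-. Each line gave 4 libraries, described as biological replicates, all differentiated in vitro in serum-free medium and harvested on day 6. The mutant libraries all came from line 4D, so the loss of Tbx1 and any other peculiarity of line 4D cannot be told apart. The labels do not say which part of Tbx1 was altered.

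T-box proteins share a DNA-binding domain, the T-box, and act as activators or repressors according to the member and its partners. In the embryo, Eomes and T act in the primitive streak and the mesoderm that leaves it, and Tbx6 acts in presomitic mesoderm. Tbx1 is needed in the pharyngeal mesoderm that builds the cardiac outflow tract, and loss of a copy of human TBX1 is held to underlie much of the heart disease of DiGeorge syndrome. Tbx5 and Tbx20 act in the forming heart, Tbx2 and Tbx3 repress chamber genes in the outflow tract, atrioventricular canal and conduction system, Tbx18 marks epicardial progenitors and the sinus horns, and Tbx4 acts in the allantois, hindlimb and lung mesenchyme.

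QuantSeq, which reads the 3′ end of each polyadenylated transcript, gave 3803561 to 6293907 counts per library. A gene's count in this assay does not grow with transcript length, so that the members can be set side by side. Levels are in CPM, counts scaled to a common library total by the trimmed mean of M values (TMM). Mutant library 4 was the shallowest and stood apart, with a correlation of log2 CPM across genes of 0.857 to 0.881 with the other libraries, against 0.92 to 0.944 among those 7. It had a count for 14850 genes, against 18213 to 19134. The lines were compared with the edgeR quasi-likelihood test on 13280 genes, and a gene was called when its Benjamini-Hochberg adjusted p over all of them was under 0.05. That call was made for 1.42% of genes, 0.745% higher in mutant cells and 0.67% lower.

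The labelled state was checked against marker lists, whose genes were summed in CPM per library. The cardiomyocyte list of 12 genes lay between 122 and 3870 CPM, and the second heart field and pharyngeal mesoderm list of 10 genes between 234 and 460 CPM, with no gene of either list at 0 throughout. Pluripotent markers summed to 28.3 to 49.8 CPM, neural markers to 30.4 to 53.1 CPM, and definitive endoderm markers to 226 to 380 CPM. Endothelial markers were at 400 to 949 CPM. Embryonic blood markers were higher in every mutant library, at 674 to 973 CPM against 125 to 178 CPM in parental libraries, with 4 of 7 called higher. The part of cell make-up in the T-box values was not tested. In bulk RNA, fewer cells of a type and less RNA per cell cannot be told apart.

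All 10 members were expressed in parental cultures by the rule used, more than 3 counts in at least 2 of the 4 libraries, and 9 of them in mutant cultures, where Tbx1 was the exception. All 10 passed the low-count filter of the test. Tbx1 fell and Tbx4 rose in the mutant line, and the other 8 members did not pass the threshold. The call for 2 of 10 members stands beside 1.42% of all genes tested, and Tbx1 is the gene that defines the lines. Of the 9 paralogues, 1 was called higher, beside 0.745% of all genes, and 0 were called lower with edgeR, DESeq2 or limma-voom, although T had an unadjusted edgeR p of 0.0133. Values of 2 of 10 members were apart, without overlap between the lines. These were Tbx4, beside 3.49% of all genes without overlap and higher in the mutant line, and Tbx1, beside 4.04% lower. At an unadjusted p under 0.05 stood 6 of the 10 members, namely Tbx1, Tbx3, Tbx4, Tbx18, Tbx20 and T, beside 11.9% of all genes. The median log2 fold change of the 9 paralogues was 0.49, the value of Tbx3, and that of all genes tested was 0. Fold changes were positive for 5 of the 9, namely Tbx2, Tbx3, Tbx4, Tbx18 and Tbx20, beside 50.2% of all genes. They were negative for Tbx5, Tbx6, T and Eomes.

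**Figure D1:**
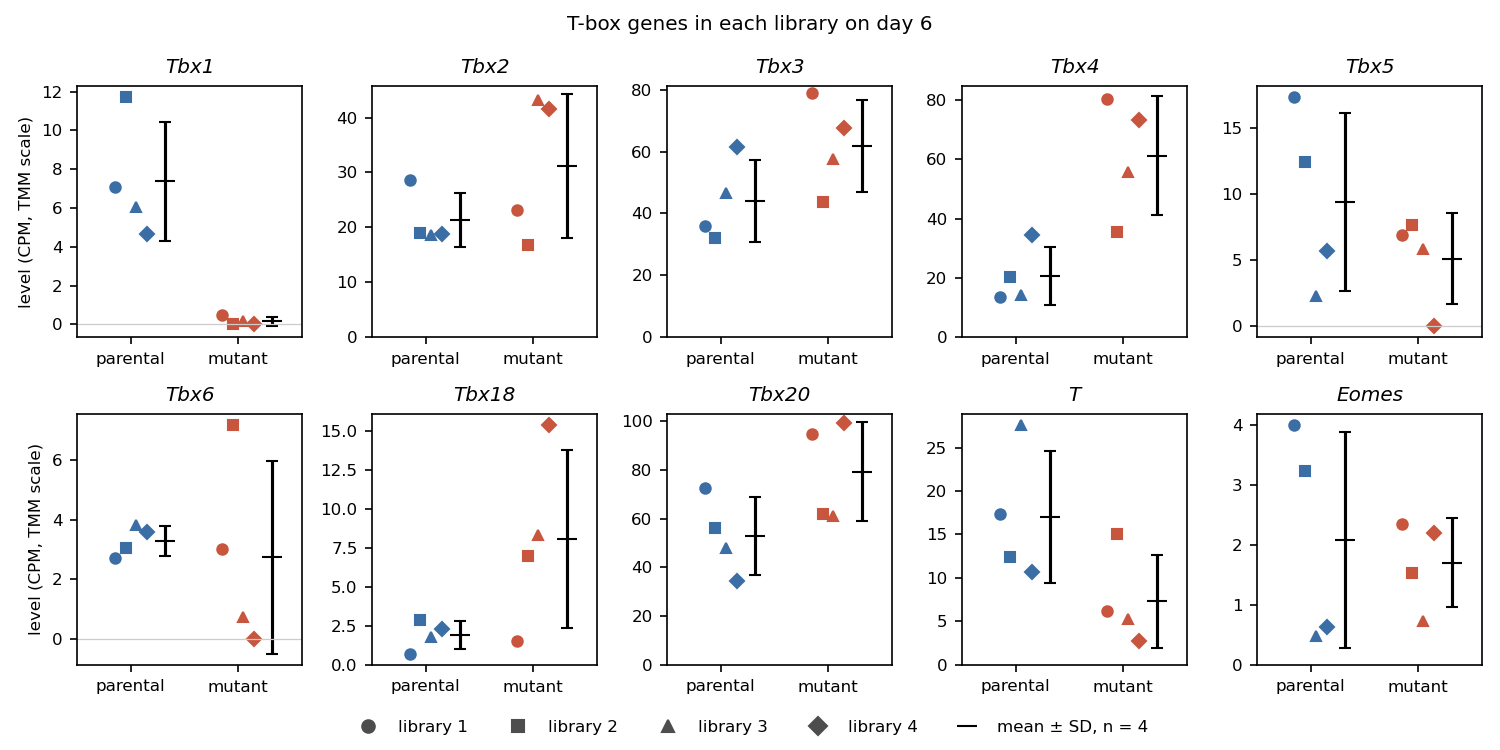
Level of each T-box gene in each library, in CPM on a linear axis of its own. Symbols are the 4 libraries of a line, and the black bar is the mean with its SD (n = 4). Tbx1 and Tbx4 are the panels in which the lines do not share a range, although for Tbx4 the gap between mutant library 2 and parental library 4 is small, at 35.5 against 34.6 CPM.

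The promoters of both called genes are printed first, with that of T, because the T-box proteins bind a known short motif and the question is how the family behaves when a member is lost. T-box proteins recognise a half-site written AGGTGTGA, and the shorter cores AGGTGT and GGTGTG, which overlap within it, were searched as well on both strands. Each window runs from 250 bases before to 50 bases after a RefSeq start site (GRCm38.p6), and capitals mark AGGTGT. The RefSeq table matched 7 of the 10 members with 8 promoters, and Tbx2, Tbx3 and Tbx5 were not matched.
Tbx1, chr16:18590622-18590921, minus strand: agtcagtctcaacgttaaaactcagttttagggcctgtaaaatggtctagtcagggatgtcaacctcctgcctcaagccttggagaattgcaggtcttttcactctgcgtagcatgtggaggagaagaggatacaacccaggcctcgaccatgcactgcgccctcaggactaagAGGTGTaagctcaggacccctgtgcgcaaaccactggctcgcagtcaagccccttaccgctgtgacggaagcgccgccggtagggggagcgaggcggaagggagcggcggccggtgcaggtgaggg
Tbx4, chr11:85896515-85896814, plus strand: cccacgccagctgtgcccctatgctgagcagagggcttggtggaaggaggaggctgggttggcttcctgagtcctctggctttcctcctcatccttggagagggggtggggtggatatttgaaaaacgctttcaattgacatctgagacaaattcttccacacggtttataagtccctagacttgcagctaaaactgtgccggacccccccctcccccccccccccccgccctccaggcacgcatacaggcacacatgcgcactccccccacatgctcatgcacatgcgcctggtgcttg
T, chr17:8434173-8434472, plus strand: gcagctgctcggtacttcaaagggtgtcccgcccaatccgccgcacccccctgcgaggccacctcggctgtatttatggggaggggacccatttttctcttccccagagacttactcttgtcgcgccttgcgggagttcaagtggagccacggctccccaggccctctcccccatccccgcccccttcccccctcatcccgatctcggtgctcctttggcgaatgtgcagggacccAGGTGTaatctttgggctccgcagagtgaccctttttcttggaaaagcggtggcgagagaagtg

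AGGTGT occurred once in this Tbx1 promoter, starting 76 bases before the start site, and once in the T promoter, starting 14 bases before it. It was not found in the Tbx4 window, nor in those of Tbx6, Tbx18, Tbx20, Eomes and the second Tbx1 start site. Over all 32851 RefSeq promoters of 300 bases, 13.7% hold AGGTGT. The full AGGTGTGA was in 0 of the 8 windows, against 1.28% of all promoters, and GGTGTG was in 0 of 8, against 19%. The Tbx4 window belongs to a RefSeq start site 10.3 kb inside the gene as the GENCODE M21 annotation draws it. A match is a description of letters and not a binding site.

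Tbx1 RNA was near the detection limit in the mutant line. The gene (ENSMUSG00000009097.10, protein coding) lies on chromosome 16 at 18580979 to 18590671 of GRCm38, minus strand. Parental libraries 1 to 4 had 39, 65, 38 and 22 counts, and mutant libraries 1 to 4 had 3, 0, 1 and 0. All mutant values were at or under 3 counts per library, the limit that a count of 0 allows, which equals 0.504 to 0.825 CPM there. The parental mean of 7.36 ± 3.04 CPM (SD, n = 4) was 11.7-fold the mean of that floor, 0.632 CPM. The ratio is not a lower bound, because it leaves out the parental spread and mutant library 1 itself had 3 counts. The edgeR log2 fold change of Tbx1 was -5.08 ± 0.88 (SE), with an adjusted p of 0.00432. The interval of that fit ran from 0.00822-fold to 0.106-fold. In parental cells Tbx1 was itself a minor T-box transcript, with 4.12 ± 1.8% (SD, n = 4) of the counts of the 10 members. Fits that left out 1 library kept Tbx1 past the threshold, with an adjusted p of at most 0.0457.

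Tbx4 was the paralogue that rose. Tbx4 (ENSMUSG00000000094.12, chromosome 11, 85886422 to 85916097, plus strand), a regulator of hindlimb, allantois and lung mesenchyme, had 74, 113, 89 and 164 counts in parental libraries 1 to 4. Mutant libraries 1 to 4 had 478, 163, 308 and 267 counts. Scaled to CPM, parental values were 13.5, 20.3, 14.2 and 34.6, and mutant values were 80.3, 35.5, 55.9 and 73.4. The lines did not overlap, which held for 7.52% of all genes tested, but parental library 4 and mutant library 2 lay next to each other.

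Parental cells had a mean Tbx4 level of 20.6 ± 9.78 CPM and mutant cells of 61.3 ± 20 CPM (SD, n = 4). A log2 fold change of 1.58 ± 0.29 (SE) corresponds to a 2.99-fold rise, with a 95% interval of 1.96 to 4.56 and an edgeR adjusted p of 0.00671. The call was kept in each of the 17 alternative fits that gave it a fold change, where log2 values ran from 1.41 to 1.94 and the highest adjusted p was 0.0407, without parental library 3. Leaving out mutant library 4 gave 1.48 with an adjusted p of 0.0123. Of the marker lists, the blood list had the highest share of genes called, 57.1%, and its part in the rise of Tbx4 was not tested.

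Tbx2 is the near neighbour of Tbx4 in the genome and did not pass the test. The genes lie 44.5 kb apart on chromosome 11, on the same strand, with Tbx2 (ENSMUSG00000000093.6) from 85832551 to 85841948. Tbx2, a repressor in outflow tract and atrioventricular canal, had 28.7, 19, 18.7 and 18.8 CPM in parental libraries 1 to 4 and 23.2, 16.8, 43.2 and 41.5 CPM in mutant libraries 1 to 4. Mutant libraries 3 and 4 were above every parental library, whereas mutant library 2 was below all of them. Its fitted log2 fold change was 0.55 ± 0.29 (SE) at an edgeR adjusted p of 0.482 and a 95% interval of 0.964-fold to 2.21-fold.

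Within a library, the ratio of Tbx4 to Tbx2 counts needs no scaling. It was 0.468, 1.07, 0.761 and 1.84 in parental libraries 1 to 4 and 3.46, 2.12, 1.29 and 1.77 in mutant ones. These ranges overlapped through parental library 4. The ratio of Tbx4 to Tbx3 did not overlap, at 0.374, 0.631, 0.305 and 0.562 in parental against 1.02, 0.811, 0.972 and 1.09 in mutant libraries. The ratio of Tbx4 to Tbx20 overlapped, at 0.185, 0.361, 0.297 and 1 in parental against 0.848, 0.572, 0.914 and 0.74 in mutant libraries. These ratios were looked at after the values of Tbx4 were known and were not tested.

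Tbx3 and Tbx5 form the second linked pair of the same subfamily, 148 kb apart on chromosome 5 and on the same strand. Tbx3 (ENSMUSG00000018604.18, 119670669 to 119684724), a repressor of the conduction system and limb regulator, had 36, 32.1, 46.6 and 61.5 CPM in parental libraries 1 to 4. Mutant libraries 1 to 4 had 78.8, 43.8, 57.6 and 67.6 CPM of it. The ranges overlapped, with mutant libraries 1 and 4 above every parental library. Its log2 fold change of 0.49 ± 0.22 (SE) had an unadjusted p of 0.0338 and an edgeR adjusted p of 0.36, with a 95% interval of 1.03-fold to 1.93-fold.

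Tbx3os1, annotated on the opposite strand to Tbx3, was low, with 1, 9, 14 and 4 counts in parental and 15, 15, 3 and 18 in mutant libraries. The name of the deposited table states forward-strand counting, so that Tbx3 and its antisense partner are counted apart. It was the sole overlapping gene of a member with more than 3 counts in at least 2 libraries.

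Tbx5 differed widely between libraries of the same line. Tbx5 (ENSMUSG00000018263.11, 119832668 to 119885219), a T-box activator of the first heart field and forelimb, had 17.3, 12.4, 2.23 and 5.69 CPM in parental libraries 1 to 4. Mutant libraries 1 to 4 had 6.89, 7.63, 5.81 and 0 CPM, and the 0 counts of mutant library 4 allow up to 0.825 CPM. Parental libraries 1 and 2 were above every mutant library, and parental library 3 was below mutant libraries 1 to 3. Its log2 value for the change was -0.86 ± 0.7 (SE), at an edgeR adjusted p of 0.702 and an interval of 0.198-fold to 1.54-fold.

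The cardiomyocyte markers also varied between libraries of the same line. Their summed level was 3870, 2090, 938 and 650 CPM in parental libraries 1 to 4 and 890, 830, 1040 and 122 CPM in mutant libraries 1 to 4. Both Tbx5 and this sum were highest in parental libraries 1 and 2 and lowest in mutant library 4. In between the orders differed, as parental library 3 had less Tbx5 than mutant libraries 1 and 2 but a higher sum. Of 11 tested cardiomyocyte markers 0 were called with edgeR, DESeq2 or limma-voom. At an unadjusted p under 0.05 stood 8 with edgeR, 2 with DESeq2 and 6 with limma-voom, beside 11.9% of all genes with edgeR. All 11 had negative edgeR fold changes, with a median log2 value of -1.3. The part of these cells in the spread of Tbx5 was not tested. Without mutant library 4 the log2 fold change of Tbx5 was -0.47, and without parental library 1 it was -0.4.

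Tbx20 was the member with the highest mean level in both lines. Tbx20 (ENSMUSG00000031965.15, chromosome 9, 24718138 to 24774303, minus strand), needed for growth and patterning of the heart tube, had 72.7, 56.2, 47.9 and 34.6 CPM in parental libraries 1 to 4. It had 94.7, 62.1, 61.2 and 99.2 CPM in mutant libraries 1 to 4. Parental library 1 lay above mutant libraries 2 and 3, so that the ranges overlapped. Mutant library 4, with the fewest cardiomyocyte marker counts, had the highest Tbx20 level.

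Between the lines, Tbx20 had a log2 fold change of 0.58 ± 0.21 (SE), or 1.5-fold with an interval of 1.1 to 2.05. Its unadjusted p was 0.0139 and its edgeR adjusted p was 0.246. Without the low-count filter the adjusted p was 0.0458, which was the sole setting that put Tbx20 past the threshold.

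Tbx18 had the highest fitted fold change of the paralogues but did not pass the test. Tbx18 (ENSMUSG00000032419.8, chromosome 9, 87702800 to 87731260, minus strand), of epicardial and sinus horn progenitors, had 4, 16, 11 and 11 counts in parental libraries 1 to 4 and 9, 32, 46 and 56 in mutant libraries 1 to 4. On the CPM scale it was 0.727, 2.87, 1.76 and 2.32 in parental libraries, against 1.51, 6.97, 8.36 and 15.4 in mutant libraries. Mutant libraries 2, 3 and 4 were above every parental library, and mutant library 1 lay inside the parental range.

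For Tbx18 the log2 fold change was 2.05 ± 0.69 (SE), with an unadjusted p of 0.0078, an edgeR adjusted p of 0.185 and a wide 95% interval of 1.53-fold to 11.2-fold. DESeq2 gave an adjusted p of 0.0557 and limma-voom 0.489. The edgeR log2 fold change was 1.53 without mutant library 4, with an adjusted p of 0.415. It was 2.39 without mutant library 1, with an adjusted p of 0.0807. Of 7 tested epicardial and septum transversum markers 0 were called with edgeR, DESeq2 or limma-voom. An unadjusted edgeR p under 0.05 was found for 1 of them, beside 11.9% of all genes, and 2 had positive fold changes. Summed, that list was at 72.9 to 82.9 CPM in parental and 68.4 to 134 CPM in mutant libraries, with the highest value, like that of Tbx18, in mutant library 4. Its part in the Tbx18 values was not tested.

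The factors of early mesoderm were still detected on day 6. T (ENSMUSG00000062327.10, chromosome 17, 8434423 to 8442496, plus strand), which drives mesoderm and axis formation from the primitive streak, had 17.3, 12.4, 27.6 and 10.7 CPM in parental libraries 1 to 4. It had 6.22, 15, 5.27 and 2.75 CPM in mutant libraries 1 to 4. Mutant libraries 1, 3 and 4 were below every parental library, and mutant library 2 lay inside the parental range. Its log2 fold change was -1.21 ± 0.44 (SE) at an edgeR adjusted p of 0.241 and an interval of 0.227-fold to 0.821-fold. Without mutant library 2 it was -1.82 with an adjusted p of 0.0417, and without parental library 3 it was -0.88 with an adjusted p of 0.602.

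Tbx6 (ENSMUSG00000030699.16, chromosome 7, 126781483 to 126785560, plus strand), the presomitic mesoderm factor, had 15, 17, 24 and 17 counts in parental libraries 1 to 4. Mutant libraries 1 to 4 had 18, 33, 4 and 0 counts. Parental values were close together, at 3.3 ± 0.5 CPM, while the mutant values of 2.74 ± 3.24 CPM (SD, n = 4) ran from below to above them. Tbx6 had a log2 fold change of -0.26 ± 0.87 (SE) with an edgeR adjusted p of 0.951, and its sign turned, to 0.13 without mutant library 4 and to 0.05 without mutant library 3. A change between 0.236-fold and 2.95-fold lay within its 95% interval.

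Mutant library 2 had the highest T and Tbx6 levels of its line and the lowest levels of Tbx2, Tbx3 and Tbx4. The presomitic and paraxial mesoderm list, which does not include T or Tbx6, summed to 161 CPM in that library and to 93.6, 57.9 and 58.8 CPM in mutant libraries 1, 3 and 4. In parental libraries 1 to 4 it was 99.5, 141, 158 and 129 CPM. Of its 8 tested genes 0 were called with edgeR, DESeq2 or limma-voom. Those with an unadjusted p under 0.05 were 0 with edgeR, 0 with DESeq2 and 4 with limma-voom, beside 11.9% of all genes with edgeR. All 8 had negative edgeR fold changes, and Msgn1 had 0 counts in all 8 libraries. The part of these cells in the levels of T and Tbx6 was not tested.

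Eomes (ENSMUSG00000032446.14, chromosome 9, 118478212 to 118486132, plus strand), of the anterior streak and early mesendoderm, was near the limit of the assay. It had 22, 18, 3 and 3 counts in parental libraries 1 to 4 and 14, 7, 4 and 8 in mutant libraries 1 to 4. All mutant values lay between the extremes of the parental ones. A log2 fold change of -0.3 ± 0.87 (SE) had an edgeR adjusted p of 0.941, and a change between 0.231-fold and 2.87-fold lay within its interval. Leaving out parental library 1 turned its sign, to 0.22, and leaving out parental library 1 or 2 took it below the detection rule in the parental line.

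**Figure D2:**
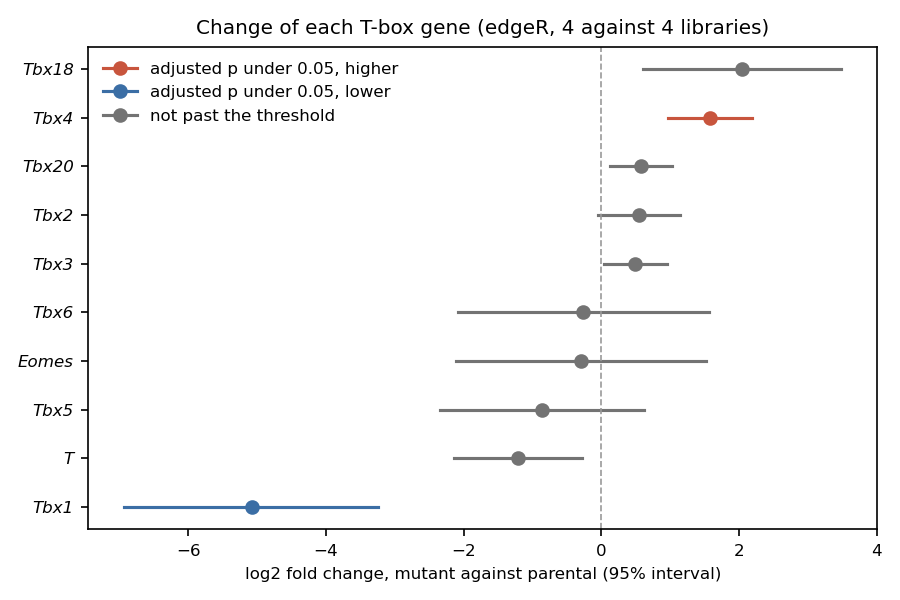
Log2 fold change of each T-box gene in the mutant against the parental line, with its 95% interval from the edgeR fit of 4 against 4 libraries. Tbx4 at 1.58 and Tbx1 at -5.08 are past the adjusted threshold. The intervals of Tbx18 (0.61 to 3.49), T (-2.14 to -0.28), Tbx3 and Tbx20 do not cross 0, but these genes were not called. Those of Tbx2, Tbx5, Tbx6 and Eomes cross 0.

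The order of levels was led by the same member in both lines. In parental cells it ran from Tbx20 at 52.8 and Tbx3 at 44.1 CPM through Tbx2 at 21.3, Tbx4 at 20.6 and T at 17 CPM to Tbx5 at 9.39 and Tbx1 at 7.36 CPM. Tbx6 at 3.3, Eomes at 2.09 and Tbx18 at 1.92 CPM came last. Neighbours in that order overlapped over the 4 libraries except at the steps from Tbx3 to Tbx2 and from Tbx1 to Tbx6. In the mutant line the order began with Tbx20 at 79.3, Tbx3 at 61.9, Tbx4 at 61.3 and Tbx2 at 31.2 CPM, and a gap without overlap followed before Tbx18 at 8.06, T at 7.32 and Tbx5 at 5.08 CPM. Tbx4 thus stood level with Tbx3 in mutant cells, each of them above the other in 2 of 4 libraries, whereas Tbx3 had more counts than Tbx4 in all 4 parental libraries.

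The 9 paralogues together had a higher summed level in each mutant library than in any parental library. The summed level was 193, 161, 163 and 172 CPM in parental libraries 1 to 4 and 297, 197, 239 and 302 CPM in mutant libraries 1 to 4. The means were 172 ± 14.4 and 259 ± 50.4 CPM (SD, n = 4), a ratio of 1.5, and parental library 1 lay just under mutant library 2. With Tbx4 left out as well, the sums were 152 ± 19 and 197 ± 31 CPM and the ranges overlapped. The 3 early mesoderm factors T, Eomes and Tbx6 went from 15 to 31.9 CPM in parental libraries to 4.95 to 23.8 CPM in mutant libraries.

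As shares of the counts of the 10 members, Tbx20 took 29.1 ± 7.22% in parental and 30.5 ± 3.29% in mutant libraries (SD, n = 4), and Tbx3 took 24.7 ± 8% and 23.8 ± 1.96%. Tbx4 went from 11.6 ± 5.68% to 23.2 ± 3.74%, with parental library 4 at 19.5% and mutant library 2 at 18.1%, so that its shares overlapped. T went from 9.54 ± 4.63% to 3.21 ± 3.01%. No test was made on sums or shares over the members.

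**Figure D3:**
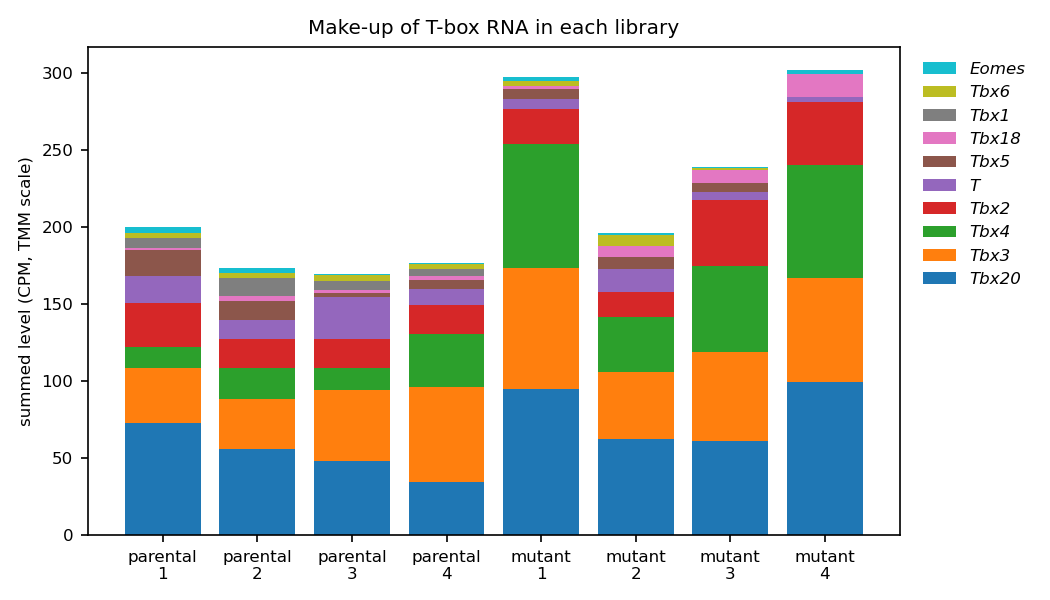
Stacked levels of the 10 T-box genes in each library, in CPM on a linear axis from 0. Parental libraries sum to 169 to 200 CPM with all 10 members, and mutant libraries to 197 to 302 CPM. The segments of Tbx4, Tbx20, Tbx3, Tbx2 and Tbx18 have higher means in the mutant line, and among them Tbx4 passed the edgeR test.

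Of the T-box genes outside the list, Mga alone was abundant. Mga, which joins a T-box to a helix-loop-helix domain and pairs with Max, was at 196 ± 7.32 CPM in parental against 184 ± 17.5 CPM in mutant libraries (SD, n = 4). A log2 fold change of -0.09 ± 0.11 (SE) had an edgeR adjusted p of 0.807, and its 95% interval of 0.801-fold to 1.1-fold was the narrowest of the T-box genes tested. Tbr1, a T-box factor of the developing cortex, met the detection rule in both lines with at most 8 counts in a library but did not pass the filter. Tbx10, Tbx15, Tbx21 and Tbx22 had at most 8 counts in any library and did not meet the detection rule in either line. Tbx10, in the same subfamily as Tbx1, had 5 counts in parental library 1 and 1 in mutant library 4, with 0 elsewhere. Tbx19 had 0 counts in all 8 libraries, which allows up to 3 counts in each.

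The genes with the library profile most like each well-expressed member were found by Pearson r of log2 CPM over the 8 libraries, among 9026 genes with a mean of at least 10 CPM. Tbx4 was closest to Tns3 (r = 0.988) and Apip (0.975), and Tbx20 to Myrf and Snx3 (both 0.986). Tbx3 was closest to Gm38394 (0.948) and Impa2 (0.94), Tbx2 to Smim14 (0.954) and Shisa5 (0.936), and T to Galc (0.953) and Tpi1 (0.952). These are the highest of many correlations over few libraries that share depth and line, and they describe the profiles without a test. Between members, the log2 levels of Tbx4 and Tbx3 had r = 0.837 and those of Tbx4 and T had r = -0.882 over the same 8 libraries.

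Partners and known targets of T-box factors were read from lists written with earlier results of these data known. Of 78 tested genes of the lists that are not members, 2 were called higher and 9 lower, or 14.1%, beside 1.42% of all genes. Those called higher were Lhx2 and Gata6. Lhx2, a pharyngeal muscle progenitor factor, rose from 2.26 ± 0.746 to 17.8 ± 15.4 CPM (SD, n = 4), a log2 fold change of 2.96 ± 0.54 (SE) at an edgeR adjusted p of 0.00612, and limma-voom gave it an adjusted p of 0.104. Without mutant library 4 its log2 fold change was 2.19 with an edgeR adjusted p of 0.0275. The cardiac GATA factor Gata6 rose from 129 ± 21 to 213 ± 18.2 CPM.

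The list of Tbx1 targets had 1 gene called higher and 4 lower of 20 tested with edgeR, beside 1.42% of all genes. Its median log2 fold change was -0.47, beside 0 for all genes. DESeq2 called 1 higher and 5 lower, beside 3.05% of all genes, and limma-voom 0 higher and 4 lower, beside 1.9%. Bmp4, a signal for mesoderm and outflow tract, fell from 342 ± 58.5 to 127 ± 50.5 CPM (SD, n = 4), a log2 fold change of -1.42 ± 0.22 (SE) with an edgeR adjusted p of 0.00165. It stayed called in all 8 fits that left out 1 library, but robust empirical Bayes gave 0.0673. Fgf10, a second heart field growth factor, fell from 25.8 ± 6.02 to 11.1 ± 2.52 CPM, Foxc1 from 46.8 ± 7.79 to 22.6 ± 5.17 CPM, and the endoderm factor Foxa2 from 15.3 ± 2.63 to 3.92 ± 2.27 CPM. Fits without a single library took Fgf10 up to an adjusted p of 0.146 (without parental library 3), Foxa2 up to 0.111 (without parental library 2) and Foxc1 up to 0.0727 (without parental library 2). Of 8 such fits, the call was lost in 5 for Fgf10, 6 for Foxa2 and 2 for Foxc1. With limma-voom, Foxa2 had an adjusted p of 0.05 and was not called. The abundant targets Fn1, Wnt5a and Nrp1 had log2 fold changes of 0.39, -0.31 and 0.21 and were not called with edgeR, DESeq2 or limma-voom.

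Targets of the heart T-box factors Tbx2, Tbx3, Tbx5, Tbx18 and Tbx20 had 0 genes called higher and 2 lower of 19 tested with edgeR, with a median log2 fold change of -0.09. At an unadjusted edgeR p under 0.05, 4 were higher and 6 lower, beside 11.9% of all genes in both directions. DESeq2 called 1 higher and 4 lower, and limma-voom called 1 higher and 2 lower. The share called over all genes was 1.42% with edgeR, 3.05% with DESeq2 and 1.9% with limma-voom. Id2, an inhibitor of helix-loop-helix factors, fell from 600 ± 32.4 to 396 ± 74.5 CPM (SD, n = 4), and its edgeR adjusted p of 0.0124 rose to 0.0692 without parental library 2. Osr1, a splanchnic mesoderm factor, fell from 32.2 ± 7.22 to 9 ± 8.05 CPM, with an edgeR adjusted p of 0.0372 that reached 0.126 without parental library 2 or 3. Its call was lost in 6 of 8 fits that left out 1 library, all but those without parental library 1 or mutant library 2. Its log2 fold change of -1.85 became -2.69 without mutant library 2. Tgfb2, Hand2 and Myl7 had log2 fold changes of -0.29, 0.4 and -1.65 and were not called with edgeR, while DESeq2 called Tgfb2, with an adjusted p of 0.0428, and both DESeq2 and limma-voom called Hand2.

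Targets of T, Eomes and Tbx6 had 0 called higher and 2 lower of 15 tested with edgeR, with a median log2 fold change of -0.55. At an unadjusted edgeR p under 0.05, 2 were higher and 6 lower, beside 11.9% of all genes in both directions. DESeq2 called 0 higher and 2 lower, and limma-voom called 0 higher and 1 lower. Beside these calls stand 1.42% of all genes with edgeR, 3.05% with DESeq2 and 1.9% with limma-voom. Cdx2, a posterior mesoderm factor, fell from 133 ± 35.6 to 73.7 ± 17.6 CPM (SD, n = 4), and Foxa2 is shared with the Tbx1 list. The edgeR adjusted p of Cdx2 was 0.0236 and reached 0.0979 without parental library 2. The Cdx2 call was lost in 4 of 8 fits that left out 1 library. The primitive streak and nascent mesoderm markers, of which Cdx2 is 1 of 9, summed to 163 to 255 CPM in parental and 94.1 to 166 CPM in mutant libraries. By mean level Cdx2 itself was the largest part of these sums, so they are not separate from its fall. Rspo3, Evx1 and Sox17 from the target list had log2 fold changes of -0.19, -0.55 and 0.42 without a call by edgeR, DESeq2 or limma-voom.

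Among partners of T-box proteins, 1 of 29 tested genes was called higher and 2 lower with edgeR, with a median log2 fold change of -0.1. DESeq2 and limma-voom each called 2 higher and 5 lower. Over all genes tested, edgeR called 1.42%, DESeq2 3.05% and limma-voom 1.9%. The zinc finger genes Sall1 and Sall4, of which Sall4 is known to work with Tbx5, fell from 77.4 ± 13.5 to 41.3 ± 14.4 CPM and from 209 ± 35.3 to 133 ± 18 CPM (SD, n = 4). Their edgeR adjusted p-values of 0.0358 and 0.019 reached 0.146 and 0.102 without parental library 3. Of 8 fits that left out 1 library, the call was lost in 6 for Sall1 and 4 for Sall4. The CPM ranges of Sall1 overlapped between the lines. Hand1, Smarca4 and Hand2, the most abundant of the list, had log2 fold changes of -0.39, 0 and 0.4 and were not called with edgeR. DESeq2 and limma-voom called Hand1, with adjusted p of 0.0388 and 0.0415, and Hand2, with 0.00314 and 0.0242.

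**Figure D4:**
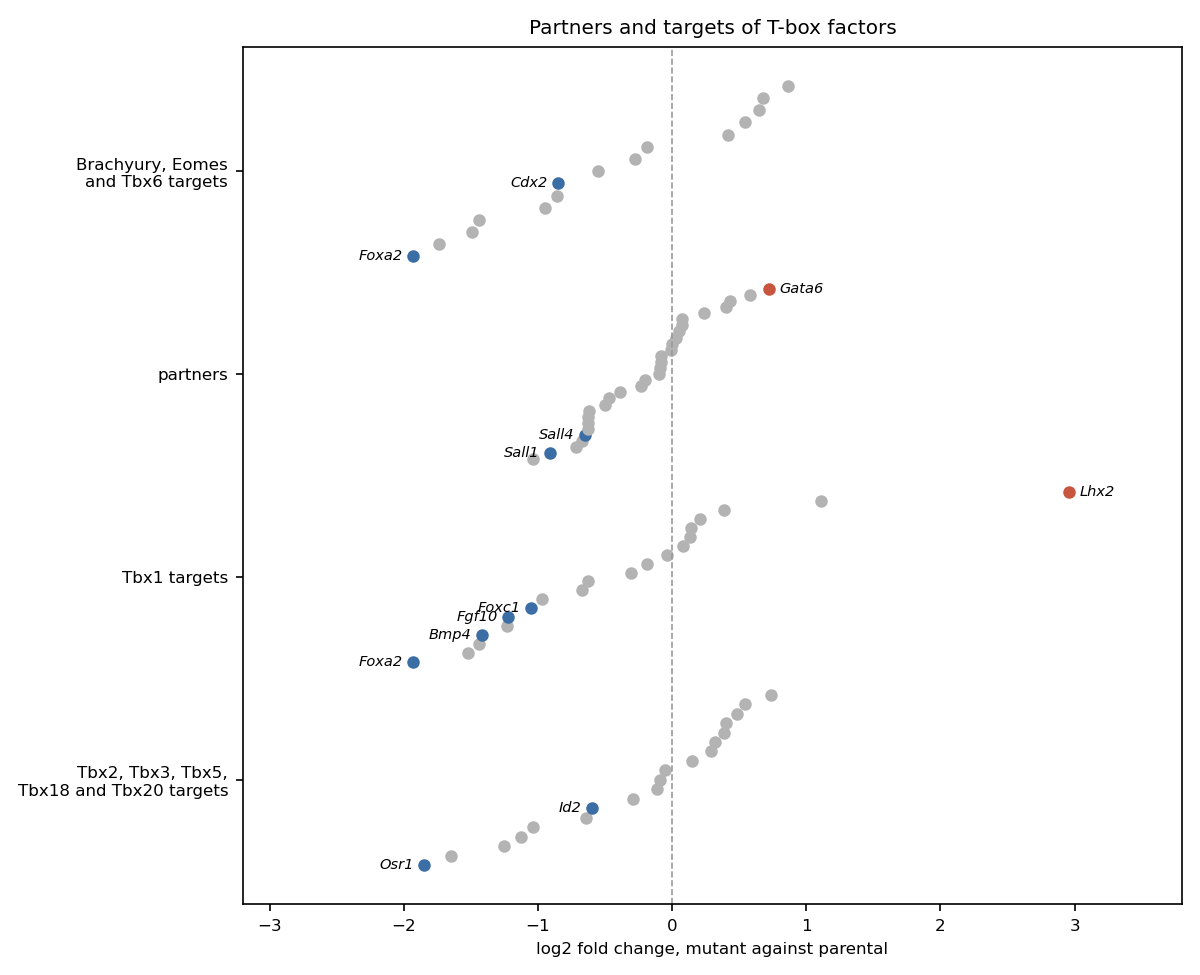
Log2 fold change of each tested partner and target gene by list, on the horizontal axis, with genes of a list spread vertically in rank order. Coloured points are genes with an edgeR adjusted p under 0.05, blue for lower and red for higher, and grey points were not called. Lhx2 at 2.96 lies apart on the right, and most called genes lie to the left of 0.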

How the data were processed

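Polyadenylated RNA of 8 cultures was made into QuantSeq libraries, and the authors deposited whole-number counts per gene and library, not normalized and not pooled. STAR and featureCounts on mm10 are named per the submitters' processing notes; versions and the gene annotation are not given in the sources used here. Of 55487 identifiers, 55227 were given a symbol from GENCODE M21 (GRCm38). Groups and replicate numbers came from the sample titles. Genes with low counts were removed with filterByExpr, and libraries were scaled by TMM. The lines were compared with edgeR 4.0.16 (quasi-likelihood F test, default settings) in R 4.3.3, and the p-values were two-sided. Standard errors are the fold change over the root of F. Alternatives used DESeq2 1.42.0 and limma 3.58.1. Log2 CPM for correlations used a prior count of 2.

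The members and gene lists were chosen with earlier results of these data known. A gene of the target lists is not reported here and was left out of the list counts. Named genes were the 10 members, other detected T-box genes, called list genes and otherwise up to 3 of highest mean CPM per list, the 2 genes most like each member with a mean of at least 10 CPM, and overlapping genes with more than 3 counts in at least 2 libraries. Floors cover counting error only. Pairs of libraries of a line differed by 7.04 to 24.2 in chi-square per degree of freedom, so none was the same library sequenced again. This check cannot tell whether libraries came from separate cultures, because libraries made separately from the same culture could also differ. Nothing beyond the word biological replicates says how cultures were separated. The p-values therefore set the difference between the lines against the spread between these cultures within a line.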

Additional observations from a re-analysis of the deposited data

Results flagged for a closer look

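In parental library 1 the Tbx2 level of 28.7 CPM was far from the other 3 parental libraries, which lay between 18.7 and 19 CPM. The gap took up 0.97 of the range of the 4 libraries, above the 95% critical value of Dixon's test. Among 20 groups of 4 libraries looked at, 1 passed that limit, and chance gives about 1 in 20.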

How the results depend on the processing

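Of the 10 members, Tbx1 and Tbx4 were called in every one of the 17 alternative fits of their fold changes and at an adjusted p under 0.01. All genes called moved from 188 to 439 without the low-count filter, 405 with DESeq2 and 86 at an adjusted p under 0.01, and ran from 103 to 235 when 1 library was left out. Without the filter 2 members were called higher (Tbx4 and Tbx20), and 4 partner and target genes were higher and 15 lower. Partner and target genes called lower were 14 with DESeq2 and 1 at an adjusted p under 0.01, and ran from 2 to 9 when 1 library was left out. Members called lower ran from 1 to 2, with T as the second without mutant library 2. Library size alone called 157 genes, 63.7% of them higher against 52.7% with TMM, and moved the median of all genes to 0.03.

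When 1 library was left out, the log2 fold change of Tbx6 ran from -1.34 to 0.13 and that of Eomes from -0.64 to 0.22. Signs turned for Eomes, to 0.09 with limma-voom, 0.01 with the replicate block and 0.22 without parental library 1, and for Tbx6, to 0.05 without mutant library 3 and 0.13 without mutant library 4; the cause was not tested. The replicate block gave 234 calls, and Tbx1 and Tbx4 were the members among them. Same-numbered libraries of the lines deviated together with a mean correlation of 0.028, and other pairs with -0.0094. The second value follows largely from the first, because each line was centred on its own mean. Single same-numbered pairs had -0.033 to 0.1. These values cannot tell whether same-numbered libraries shared a day or batch, which the labels do not state. After thinning or with a mean of at least 10 counts, Eomes could not be fitted. With at least 1 count in every library as the rule, 7 members were detected in the mutant line. Robust empirical Bayes was added after the data were seen. Low counts limit what this depth can show for Eomes, with at most 22 in a library, and for Tbx6, with at most 33.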
